A study of Mus musculus with 12 samples.

Results

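Hedgehog signalling was examined in mouse lung tumors and normal mouse lung through 9 genes: the ligands Shh and Dhh, the receptor Ptch1, the signal transducer Smo, the inhibitor Sufu, the transcription factors Gli1, Gli2 and Gli3, and the ligand-binding protein Hhip. The 9 genes were picked by symbol, and all 9 were found among the 30399 genes listed by Ensembl identifier. Poly-A RNA sequencing covered 5 samples labelled normal lung and 7 labelled tumor, from a study that made lung cancer models in mice by CRISPR/Cas9 mutagenesis without a viral vector. Strain, age, sex and the genes edited in each tumor are not given in the sources used here. The titles of the 7 tumors carry 4 distinct numbers: tumors 3 and 4 share 159 and tumors 5, 6 and 7 share 201, and nothing in the labels says whether such tumors came from 1 animal, so the p-values measure the spread between these samples. The titles of tumors 1 and 7 hold the Spanish word for trachea.

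In Hedgehog signalling a secreted ligand binds the membrane protein Patched, which otherwise holds Smoothened inactive. Freed Smoothened acts in the primary cilium and lets Gli proteins leave the inhibitor Sufu and turn on target genes, among them Gli1, Ptch1 and Hhip themselves. In the lung, Shh is known as an epithelial signal to the surrounding mesenchyme, where its receptors and Gli factors are found, and small cell lung carcinoma is a neuroendocrine tumor in which the pathway has been much studied.

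The values deposited are read counts divided by 1 size factor per sample, called normalized counts here. Between 11126432 and 17032234 reads per normal lung and between 13093843 and 24217633 per tumor were assigned to genes, and 3 reads corresponded to a normalized count of at most 4.85 in normal lung and 3.57 in tumors. Of 10 neuroendocrine markers, 10 were higher in tumor, with a mean log2 level of 3.85 to 4.29 in normal lung and 10.92 to 12.67 among tumors. Of 10 alveolar epithelial markers, 10 were lower, with a mean log2 level of 13.93 to 14.39 among normal lungs and 4.86 to 8.42 among tumors. Tumor 7 stood apart by its leukocyte markers (9.51 against 2.81 to 7.27 in the other tumors and 8.79 to 9.73 in normal lung) and its cardiac muscle markers (12.28 against at most 8.88 in every other sample). Y-linked genes were high in 4 of the 5 normal lungs and 1 of the 7 tumors (tumor 1), at a mean log2 level of 9.14 to 9.43. In every other sample their mean log2 level was at most 1.48. Their level thus largely followed tissue, which limits what fits with a Y-linked covariate can separate. Each gene was tested with limma on log2(normalized count + 1) together with all 23674 genes of mean value at least 1, and called at a Benjamini-Hochberg adjusted p under 0.05. All 9 Hedgehog genes passed that filter.

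Of the 9 genes, 6 were lower in tumor (Shh, Dhh, Ptch1, Smo, Gli1 and Hhip), 0 were higher, and 3 did not pass the test (Sufu, Gli2 and Gli3). Over all genes tested, 30.1% were called lower and 31.4% higher. The median log2 fold change of the 9 genes was -1.23, beside 0.04 over all genes tested. In 4 of the 9 (Shh, Smo, Gli1 and Hhip) every tumor lay below every normal lung, and in 0 did every tumor lie above, where 18.4% and 20.1% of all genes did so. No gene of the 9 was higher at an unadjusted p under 0.05 in limma. Count tests on the 11 samples without tumor 3 also called 0 higher, edgeR with 5 lower (26.3% of its genes were called lower and 34.9% higher) and DESeq2 with 6 lower (24.7% lower and 30.6% higher). Scaling every sample to the same total moved the median of all genes from 0.04 to 0.24 and left 1 gene called higher, Sufu at 0.41.

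**Figure D1:**
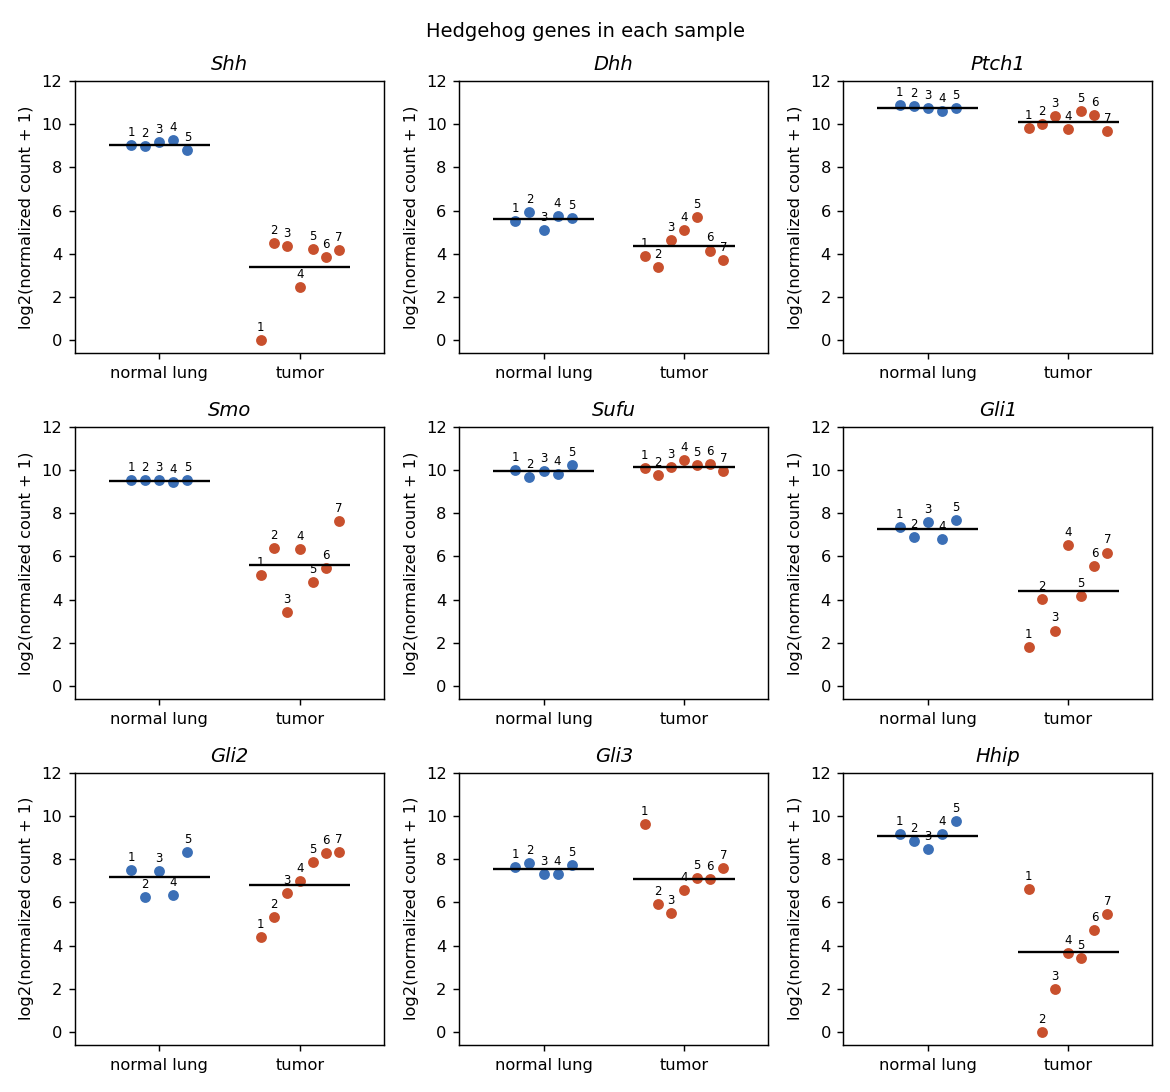
Normalized counts of the 9 Hedgehog genes on the log2(value + 1) scale (y axis) in 5 normal lungs (blue) and 7 tumors (red), with the sample number above each point and the group mean as a line. The tumors lie below all normal lungs for Shh, Smo, Gli1 and Hhip, and the groups overlap for Sufu.

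Of the 2 ligands, Shh fell to 27 reads or fewer in each tumor whose reads were recovered. Normalized counts of Shh (Sonic hedgehog, ENSMUSG00000002633) were 526.2, 507, 585, 624 and 444 across normal lungs 1 to 5. They were 0, 21.4, 19.8, 4.49, 17.8, 13.5 and 17.3 across tumors 1 to 7. All tumors were thus far below all normal lungs, and tumor 1 held no read of Shh among its 23980583, which allows a normalized count of up to 1.90. Tumor 4 held 5 reads, and the other tumors whose reads were recovered held 18 to 27. The mean fell from 537 ± 69.7 (SD, n = 5) to 13.5 ± 8.16 (SD, n = 7), which is 39.9-fold lower. On the log2 scale the difference was -5.69 (SE 0.67, limma adjusted p = 8.41e-06). The exons of Shh share 446 bases with those of 9530036O11Rik on the opposite strand, whose values ran from 429.6 to 661 among normal lungs and from 19.0 to 337 among tumors. Because the use of the strand in counting is not given in the sources used here, reads within the shared bases cannot be told apart between the 2 genes.

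Dhh (Desert hedgehog, ENSMUSG00000023000), the ligand known from Schwann cells and the testis, was low throughout. Normal lungs 1 to 5 gave 45.1, 60.2, 33.9, 53.6 and 49.4 normalized counts, and tumors 1 to 7 gave 13.9, 9.53, 23.8, 33.2, 51.0, 16.8 and 12.2. Tumor 5 lay among the normal lungs and the other tumors lay below them. Dhh changed by -1.23 on the log2 scale (SE 0.41, limma adjusted p = 0.0178), from a mean of 48.5 ± 9.85 (SD, n = 5) to 22.9 ± 14.8 (SD, n = 7). The call was lost in edgeR (-1.02, adjusted p = 0.0558), with quantile normalization (-1.07, 0.0552), without the trachea-titled tumors (-1.01, 0.0534) and with a Y-linked covariate (-1.17, 0.0966). Exons of Dhh share 546 bases with Rhebl1 on the same strand, whose values moved the other way, with 113 to 171 among normal lungs and 263 to 1016 among tumors. Of 6 Schwann cell markers 1 was higher (S100b, 6.45 to 9.68 in normal lung and 12.9 to 26.2 in tumors) and 1 lower, and their part in the Dhh result was not tested.

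The ligand of the family outside the 9, Ihh (Indian hedgehog), had 14.5 to 29.7 normalized counts in normal lung and 21.4 to 44.0 among tumors. Its log2 fold change of 0.74 (95% interval 0.07 to 1.41, limma adjusted p = 0.0529) did not pass the test, although it did in edgeR (0.81, adjusted p = 0.0369) and DESeq2 (0.76, 0.0372) without tumor 3. Its mean was 20.1 ± 6.17 (SD, n = 5) in normal lung and 34.3 ± 8.81 (SD, n = 7) in tumors, with overlapping groups.

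Of the membrane proteins, the ligand receptor Ptch1 fell little and the transducer Smo fell strongly. Across normal lungs 1 to 5, Ptch1 (ENSMUSG00000021466) stood at 1869, 1829, 1718, 1550.3 and 1744 normalized counts. Across tumors 1 to 7 it stood at 915, 1030.5, 1325, 880.1, 1579, 1389 and 832. Tumor 5 overlapped the lowest normal lung, and the other tumors lay below. Its mean in tumors was 65.2% of that in normal lung, and it changed by -0.65 on the log2 scale (SE 0.17, limma adjusted p = 0.0053). The call held under all 23 alternatives, with fold changes from -0.77 to -0.45.

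Smo (Smoothened, ENSMUSG00000001761) was tightly grouped in normal lung, at 740.3, 732, 743, 693 and 737 normalized counts. In tumors 1 to 7 it was at 34.8, 82.2, 9.91, 79.9, 27.5, 43.8 and 197. The groups did not overlap, and the tumor values spread widely, from tumor 3 at the bottom to tumor 7 at the top. The mean fell 10.7-fold, from 729 ± 20.7 (SD, n = 5) to 67.8 ± 62.7 (SD, n = 7), a log2 difference of -3.90 (SE 0.54, limma adjusted p = 3.54e-05). Without tumor 7 the log2 fold change was -4.24.

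Hhip (Hedgehog interacting protein, ENSMUSG00000064325), a membrane protein that captures ligand and is itself a target of the pathway, was also lower in every tumor. Normal lungs 1 to 5 had 573, 457, 352, 577 and 874 normalized counts. Tumors 1 to 7 had 96.2, 0, 2.97, 11.7, 9.71, 24.9 and 42.9. Every tumor lay below every normal lung, with tumor 1 highest and tumor 2, with no read, lowest. Its log2 difference was -5.39 (SE 0.89, limma adjusted p = 0.000163). The mean fell from 566 ± 195 (SD, n = 5) to 26.9 ± 33.9 (SD, n = 7).

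The region upstream of the transcription start is shown for Smo and Hhip, which fell strongly, and Ptch1, which fell little. The sequences are the 250 bases before the start in RefSeq (GRCm38.p6, the strand of the gene), in which 7 of the 9 genes were matched. Capitals mark GC boxes, the letters GGGCGG or CCGCCC.
Smo, chr6:29735247-29735496, plus strand: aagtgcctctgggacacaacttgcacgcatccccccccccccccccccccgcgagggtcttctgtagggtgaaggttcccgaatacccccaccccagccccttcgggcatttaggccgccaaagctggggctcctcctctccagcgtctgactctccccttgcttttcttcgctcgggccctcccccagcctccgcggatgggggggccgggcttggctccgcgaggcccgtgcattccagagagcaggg
Hhip, chr8:80058009-80058258, minus strand: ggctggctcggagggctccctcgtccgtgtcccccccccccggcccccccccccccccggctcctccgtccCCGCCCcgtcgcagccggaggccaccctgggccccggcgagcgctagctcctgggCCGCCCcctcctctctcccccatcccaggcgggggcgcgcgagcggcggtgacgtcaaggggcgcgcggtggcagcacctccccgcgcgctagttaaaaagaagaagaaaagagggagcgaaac
Ptch1, chr13:63565736-63565985, minus strand: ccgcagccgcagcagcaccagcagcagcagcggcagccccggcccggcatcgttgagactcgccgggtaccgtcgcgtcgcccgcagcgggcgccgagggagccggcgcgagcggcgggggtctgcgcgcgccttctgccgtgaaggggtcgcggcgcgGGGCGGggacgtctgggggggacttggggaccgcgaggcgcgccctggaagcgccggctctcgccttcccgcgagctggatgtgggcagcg
GC content was 68.4%, 76.0% and 78.4% in this order, against a median of 52.4% over 32851 such windows, and the windows held 15, 28 and 41 CpG pairs against a median of 6. A GC box, which occurs in 32.74% of all windows, was present in those of Hhip and Ptch1 and in none of the letters of the Smo window. The letters of the Gli consensus site, GACCACCCA or its complement TGGGTGGTC, were in 0.2253% of all windows and in none of the 7 windows matched. For Smo and Hhip the bases just after the RefSeq start were not found in a GENCODE transcript of the gene.

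Sufu (Suppressor of fused, ENSMUSG00000025231), the cytoplasmic inhibitor that holds Gli proteins back, did not pass the test. Its normalized counts were 1016, 828, 990.0, 908 and 1192 across normal lungs 1 to 5 and 1076, 883, 1143, 1395, 1213, 1251 and 1003 across tumors 1 to 7. Tumors and normal lungs overlapped over most of their range. The difference on the log2 scale was 0.20, with a 95% interval of -0.11 to 0.51 (limma adjusted p = 0.239). Equal totals per sample, which raised all genes, gave a call at 0.41 (adjusted p = 0.0248).

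Of the 3 Gli factors, only Gli1 was called. Gli1 (ENSMUSG00000025407), an activator and the usual readout of the pathway, gave 165, 119, 195, 113 and 208 normalized counts across normal lungs 1 to 5. Tumors 1 to 7 had 2.53, 15.5, 4.96, 90.7, 16.99, 45.8 and 71.7. Every tumor lay below every normal lung, tumors 4 and 7 nearest to them and tumors 1 and 3 close to the level of a few reads. The mean fell 4.52-fold, from 160.2 ± 43.2 (SD, n = 5) to 35.5 ± 34.7 (SD, n = 7), a log2 difference of -2.88 (SE 0.74, limma adjusted p = 0.0041). The size depended on the method, with -1.89 in edgeR (adjusted p = 0.0251) and a call in every alternative. Exons of Gli1 share 62 bases with Arhgap9 on the opposite strand, which had 338 to 402 normalized counts among normal lungs, 0.991 to 95.02 in tumors 1 to 6 and 467 in tumor 7. A further 265 bases are shared with Gm47200, which had 0 to 3.97.

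Gli2 (ENSMUSG00000048402), the main activator upstream of Gli1, varied widely in both groups. Normalized counts of 179, 74.2, 173, 79.0 and 323 were found across normal lungs 1 to 5, and of 20.3, 39.3, 85.3, 127, 235, 305.3 and 316 across tumors 1 to 7. Tumors 1 and 2 lay below all normal lungs, tumors 3 to 7 lay among them, and tumors 5, 6 and 7, which share a title number, were the highest. The difference of -0.36 on the log2 scale (95% interval -1.81 to 1.08, limma adjusted p = 0.657) did not pass the test, and its sign turned in edgeR (0.15), in DESeq2 (0.091) and without tumor 1 (0.035).

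Gli3 (ENSMUSG00000021318), known mainly for its repressor form, gave 199, 228, 158, 155 and 210.4 normalized counts across normal lungs 1 to 5. Tumor 1 had 796, and tumors 2 to 7 had 59.6, 44.6, 95.2, 138, 135 and 192. Tumor 1 was the only one above the normal lungs, tumors 2 to 6 lay below them and tumor 7 lay among them. Its log2 difference of -0.50 (95% interval -1.68 to 0.69, limma adjusted p = 0.452) did not pass the test. The outcome turned on tumor 1: without it the log2 fold change was -0.92 (adjusted p = 0.0385), and without both trachea-titled tumors it was -1.12 (adjusted p = 0.00979). In edgeR and DESeq2, which left out tumor 3, the sign turned (0.41 and 0.33). In limma it stayed negative whichever single sample was left out, tumor 3 included (-0.92 to -0.24). Exons of Gli3 share 188 bases with Gm6556 on the opposite strand, which had 1.80 to 21.5 over all samples.

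**Figure D2:**
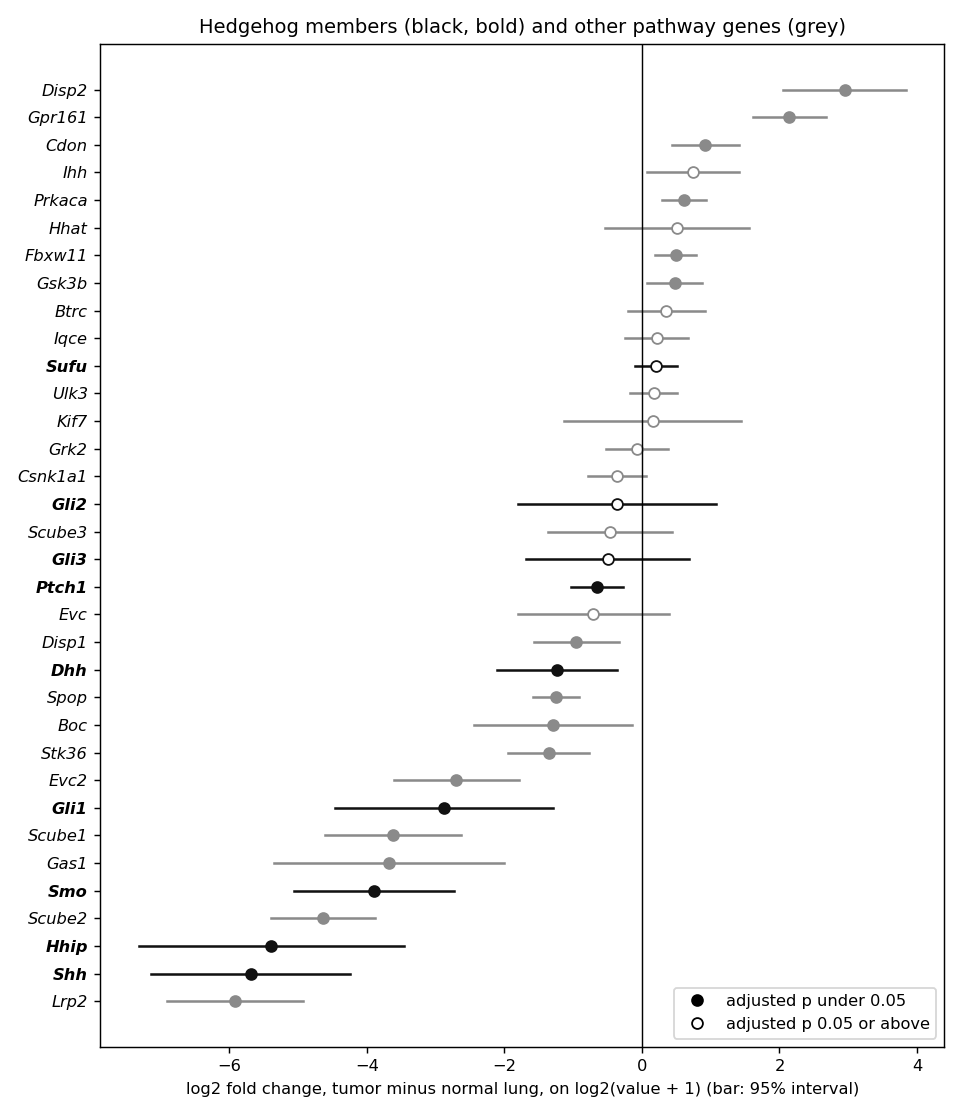
Log2 fold change of tumor against normal lung on the log2(value + 1) scale (x axis) with its 95% interval for the 9 Hedgehog genes (black) and other genes of the pathway (grey), where filled points passed the limma test. Shh, Hhip and Smo sit near the bottom with Lrp2 and Scube2, and Disp2 and Gpr161 at the top.

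Divided by the annotated exon length, levels can be set beside each other between genes. In normal lung Shh was highest, at 189 ± 24.5 normalized counts per kb (SD, n = 5), and its lowest sample lay above every sample of the next gene. Smo (129.7 ± 3.69), Sufu (128 ± 17.7) and Ptch1 (123 ± 8.70) followed with overlapping ranges. Hhip (62.4 ± 21.5), Gli1 (32.1 ± 8.65), Gli2 (24.1 ± 14.7) and Gli3 (19.8 ± 3.36) came after, each overlapping its neighbour, and Dhh was lowest at 11.02 ± 2.24.

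In tumors the order of the per-kb levels was another one. Sufu led at 148 ± 22.0 normalized counts per kb (SD, n = 7), above every value of Ptch1 (80.1 ± 20.6), which in turn lay above every value of Gli2 (23.5 ± 18.0). The range of Gli3 did overlap that of Ptch1, with a highest value of 83.0 against a lowest of 58.6 for Ptch1. Gli3 (21.8 ± 27.5), Smo (12.1 ± 11.2), Gli1 (7.10 ± 6.95), Dhh (5.21 ± 3.35), Shh (4.73 ± 2.87) and Hhip (2.97 ± 3.73) followed, and each of these overlapped its neighbours. Shh thus went from rank 1 to rank 8 of the 9 and Hhip from rank 5 to rank 9.

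**Figure D3:**
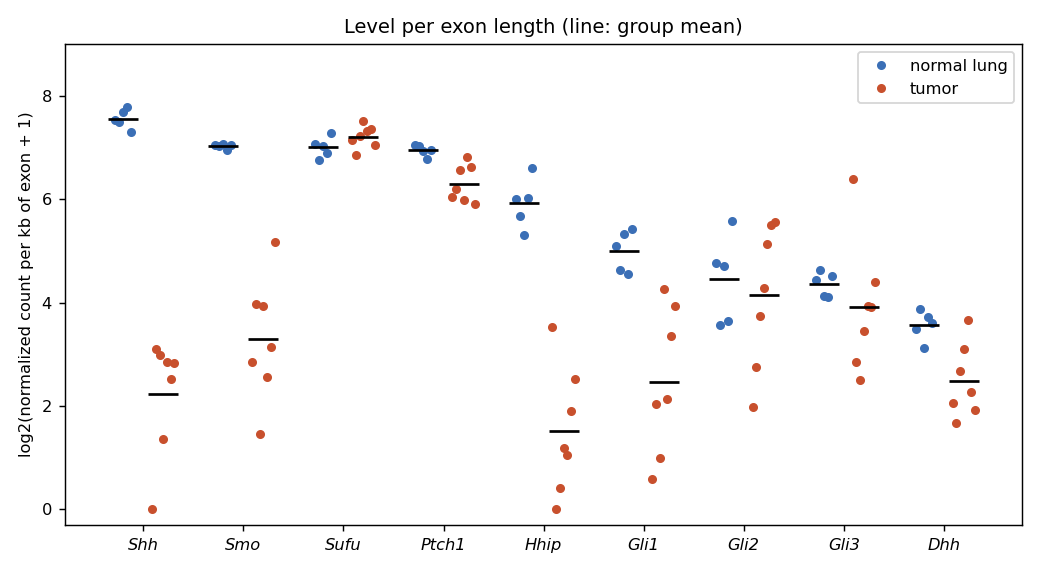
Normalized counts per kb of annotated exon on a log2(value + 1) scale (y axis) for the 9 Hedgehog genes in 5 normal lungs (blue) and 7 tumors (red), ordered by their level in normal lung, with group means of the plotted values as lines. Shh, Smo and Hhip spread low in tumors while Sufu and Ptch1 stay near the top.

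Of 26 other genes listed for the pathway, 7 were higher in tumor, 9 were lower and 10 did not pass the test, where 31.4% of all genes tested were called higher and 30.1% lower. These counts are near that background, and the median log2 fold change of 0.04 was that of all genes tested. With the Y-linked covariate 4 were called higher.

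Among genes that release or carry ligand, Scube2 and Scube1, secreted proteins that help ligand leave the cell, fell by 4.64 and 3.62 on the log2 scale (limma adjusted p = 1.22e-07 and 1.52e-05). Scube2 had 415 to 1217 normalized counts among normal lungs and 11.9 to 52.6 among tumors. The ligand transporter Disp1 fell by 0.95 (adjusted p = 0.0104), with tumor 7 (298) inside the normal range of 281 to 358, and the call was lost with the Y-linked covariate (-0.79, adjusted p = 0.105). Its relative Disp2 rose by 2.95 (adjusted p = 4.09e-05), from 242 to 1891 in normal lung to 2132 to 5847 in tumors, without overlap. Disp1 and Disp2 thus moved in opposite directions. Lrp2, a large endocytic receptor that can take up Shh, fell by 5.92 on the log2 scale (adjusted p = 1.5e-07) and had 556 to 1064 normalized counts among normal lungs and 3.97 to 39.6 among tumors.

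The 3 co-receptors that present ligand to Patched did not move together. Gas1 fell by 3.68 on the log2 scale (limma adjusted p = 0.00109), and it was called in edgeR (-2.29, adjusted p = 0.0128). Normal lungs 1 to 5 gave 867, 669, 833, 667 and 836 normalized counts, and tumors 1 to 7 gave 44.9, 92.9, 6.94, 93.4, 16.99, 91.0 and 537. Tumor 7 was close to the normal lungs and the other 6 tumors were far below. Cdon rose by 0.92 (adjusted p = 0.0033), from 476 ± 95.9 (SD, n = 5) to 924 ± 274 (SD, n = 7), and the call was lost with the Y-linked covariate (0.74, adjusted p = 0.0591). Boc was called lower at -1.29 (adjusted p = 0.0494), a call lost in 14 of 23 alternatives, edgeR (-0.89, adjusted p = 0.119) and DESeq2 (-0.94, adjusted p = 0.0966) among them. Its tumor 1 stood lowest, at 36.7 against 276 to 548 in the other tumors.

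Gpr161, a ciliary receptor that restrains the pathway through protein kinase A, rose by 2.14 on the log2 scale (SE 0.25, limma adjusted p = 6.89e-06), from 123 ± 13.04 (SD, n = 5) to 581 ± 242 (SD, n = 7), with no overlap between the groups. Kif7, a ciliary kinesin that regulates Gli proteins, ran from 98.9 to 231 normalized counts in normal lung and from 24.1 (tumor 1) to 629 (tumor 2) among tumors. Its log2 fold change of 0.16 (95% interval -1.13 to 1.45, adjusted p = 0.829) did not pass the test.

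Reported target genes of the Gli factors were next compared. Of 10 listed, Foxf1 and Foxl1 were not analysed here, and of the other 8, 6 were lower in tumor and 2 higher, beside 30.1% and 31.4% of all genes tested, with a median log2 fold change of -2.95. Many of these genes also answer to other signals. Bmp4, a signal made by lung mesenchyme, fell by 6.05 on the log2 scale (limma adjusted p = 2.77e-06), from 2360 ± 342 (SD, n = 5) to 51.7 ± 42.6 (SD, n = 7). The cyclins Ccnd1 and Ccnd2 fell by 4.65 and 4.62 (adjusted p = 2.96e-07 and 9.16e-05). Foxf2, a mesenchymal transcription factor, fell by 3.23 (SE 0.94, adjusted p = 0.00882), with tumors from 6.96 (tumor 1) to 886 (tumor 3), and tumor 3 was the 1 tumor above the lowest normal lung (854). Mycn rose (2.48, SE 0.63, adjusted p = 0.00382), a driver of growth that reached 7208 normalized counts in tumor 2 against 305 to 698 in the other tumors and 86.2 to 173 in normal lung. Mycn was not called with the Y-linked covariate (1.82, adjusted p = 0.0781). Exons of Gas1, Kif7, Bmp4, Ccnd1, Ccnd2, Tmem67 and Ofd1 overlap genes on the opposite strand, so their values are uncertain to that extent.

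Genes of the primary cilium, where the pathway signals in vertebrates, were called at shares near those of all genes. Of 16 listed, 6 were higher and 4 lower in tumor, against 31.4% and 30.1% of all genes tested, and the median log2 fold change was 0.03. The largest increases were those of Tmem67, a protein of the ciliary base (1.60, limma adjusted p = 0.000651), Ift80, an intraflagellar transport protein (1.44, 0.000127), Dync2h1, the motor of return transport (1.22, 0.000125) and Ofd1, a basal body protein (0.99, 0.00227). Ift20 (-1.14, 4e-05), Ift52 (-0.54, 0.00278), Ift88 (-0.53, 0.0373) and Arl13b (-0.44, 0.0309) were the 4 called lower. The Ift88 call was lost in 13 of 23 alternatives, among them the title number as a correlated block (-0.52, adjusted p = 0.0701), and the Arl13b call in 8. Counts of lower cilium genes fell to 2 in edgeR and DESeq2, with equal totals and without the trachea-titled tumors, and to 1 with the Y-linked covariate. Normal lung holds multiciliated cells, which use the same transport genes, and of their markers Foxj1 had 2721 to 3785 normalized counts in normal lung against 185 to 835 in tumors. Ccdc39, another gene of motile cilia, was called higher in tumor, with its values given below. The part of multiciliated cells in these values was not tested.

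Because receptors and Gli factors are known from lung mesenchyme, marker levels of other cell types are given beside them. In bulk tissue, fewer cells of a type and less RNA per cell cannot be told apart. Of 12 fibroblast markers, Tcf21 was not analysed here, and of the other 11, 6 were lower in tumor and 0 higher, with Wnt2 and Fgf10 listed at 0 in tumor 3. The mean log2 level of the 11 was 9.61 to 10.46 in normal lung, and in tumors 1 to 7 it was 6.26, 7.33, 5.76, 8.28, 6.82, 7.93 and 8.76. Tumors 3, 1 and 5 were thus lowest and tumors 7, 4 and 6 highest in the mean level of the fibroblast markers. The same 3 tumors were highest in Gli1 (tumors 4, 7 and 6). Smo and Gas1 were also lowest in tumor 3 and highest in tumor 7. Single fibroblast markers did not all follow the mean: Pdgfra was highest of the tumors in tumor 3 (2949 normalized counts), with 781 in tumor 7. Collagen genes of the list differed: Col1a1 had 561 to 3513 normalized counts in normal lung and 825 to 8727 in tumors, whereas Col13a1 had 569.9 to 1160.0 and 25.1 to 109.6. Smooth muscle markers, 5 of 6 lower in tumor, reached a mean log2 level of 9.87 in tumor 7 against 6.78 to 7.93 in the other tumors and 9.21 to 9.90 in normal lung. Fibroblast markers were not alone in their order. The mean log2 levels of endothelial (6.54 and 9.23) and leukocyte markers (2.81 and 9.51) were also lowest in tumor 3 and highest in tumor 7. Alveolar and airway markers were lowest in tumor 3 too, but highest in tumors 5 and 1. Neuroendocrine markers ran the other way, highest in tumor 3 (12.67) and lowest in tumor 7 (10.92). The part of any of these cell types in the Gli1, Smo and Gas1 results was not tested. Without tumor 7 the log2 fold changes were -3.18 for Gli1 and -4.20 for Gas1, and both were called.

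**Figure D4:**
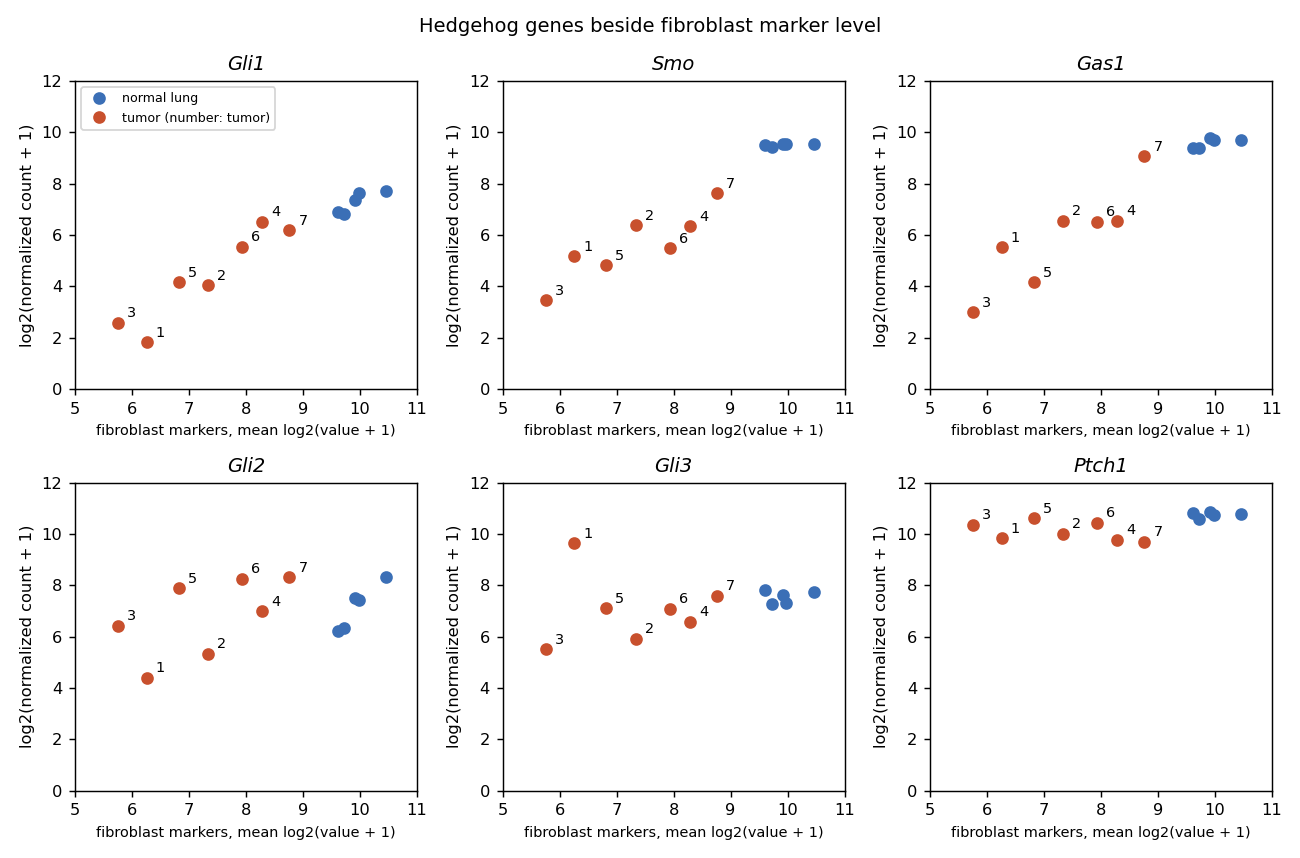
Level of Gli1, Smo, Gas1, Gli2, Gli3 and Ptch1 (y axis, log2(normalized count + 1)) against the mean log2 level of 11 fibroblast markers (x axis) in 5 normal lungs (blue) and 7 tumors (red, with tumor numbers). In the panels of Gli1, Smo and Gas1 the tumors with more fibroblast marker signal tend to sit higher. Endothelial and leukocyte markers, not plotted, were likewise lowest in tumor 3 and highest in tumor 7. Ptch1 stays between 9.70 and 10.63 in the tumors whatever their marker level.

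The ligand Shh is known from epithelium, and the epithelial markers were set beside it. Airway epithelial markers had a mean log2 level of 10.34 to 10.82 in normal lung and 3.66 to 7.71 in tumors, and of the 8, 6 were lower in tumor and 1 higher. The 1 higher was Ccdc39, a gene of motile cilia named after its values were seen, with 279 to 478 normalized counts in normal lung and 385 to 1063 in tumors. Among tumors, alveolar markers were highest in tumors 5 and 6 (8.42 and 7.69) and airway markers in tumor 1 (7.71). Shh was listed highest in tumors 2 and 3 (21.4 and 19.8 normalized counts). Tumors 2, 5, 6 and 7 held only 18 to 27 reads of Shh, so its order among these tumors is uncertain. Endothelial markers, 6 of 6 lower, had a mean log2 level of 13.08 to 13.32 among normal lungs and 6.54 to 9.23 among tumors. The part of these cell types in the Shh and Dhh results was not tested.

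The genes most alike in pattern to each Hedgehog gene were ranked by the Pearson correlation of log2 values over the 12 samples, among 16483 named genes with a mean log2 value of at least 4. These correlations are descriptions, since the samples share the tissue difference. Gli1 was most like C1s1 (0.97), Col6a1 (0.96) and Col6a2 (0.96), the last 2 being chains of collagen VI. Smo was most like Vamp5, Aldh2 and Gulp1 (each 0.99), Hhip most like Tmem200a, Tmem53 and Nectin4 (each 0.99), and Shh most like Spred1, Ppp1r16b and Maoa (each 0.98). For Ptch1 the 3 were Btbd7 (0.94), Dstyk (0.93) and Hmbox1 (0.93), and for Dhh Lmo7 (0.94), Zfp712 (0.93) and Pias1 (0.93). Gli2 was most like Myo3b (0.95), Gli3 most like Tnik (0.95) and Sufu most like Tcf7l1 (0.93). With each group centred on its own mean, so that only differences within the groups count, C1s1 stayed among the 3 genes most like Gli1 (0.93), Myo3b stayed first for Gli2 (0.95) and Tmem200a for Hhip (0.98). Smo was then closest to Emilin2 (0.98), Lpar1 (0.97) and Serping1 (0.97), Gli3 to Thsd4 (0.97), and Ptch1 to N4bp2 (0.96).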

How the data were processed

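Poly-A RNA of 5 normal lungs and 7 tumors was sequenced. Per the submitters' processing notes, the authors used featureCounts and DESeq2 with build GRCm39; versions, aligner, annotation and strand setting are not given in the sources used here. The deposited values are a signal of normalized read counts, since 100% of values in 11 columns were whole multiples of 1 step (tolerance 0.01 reads). In tumor 3 the step was 0.991, close to 1. Reads of this tumor were not recovered here and count tests left it out, which was a choice of processing. Symbols came from GENCODE M21 (29982 of 30399 identifiers), as did exon lengths (GRCm38).

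Genes with mean at least 1 were tested with limma 3.58.1 (lmFit, eBayes with trend) on log2(value + 1), with Benjamini-Hochberg adjustment. Alternatives were edgeR 4.0.16 (quasi-likelihood, TMM), DESeq2 1.42.0, other scalings, filters and pseudocounts, title numbers, a Y-linked covariate and left-out samples. Exact permutation tests used all 792 splits. R 4.3.3, Python 3.11.15 and matplotlib 3.10.9 were used, and limma was tested on simulated data. Of named genes, the 9 and 8 fixed others are given whatever their values, with the 4 largest called changes in each direction per list. Members and lists were chosen with earlier results of these data known. Limits from a count of 0 cover counting error only. Results of some listed genes are not reported here.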

Additional observations from a re-analysis of the deposited data

Results flagged for a closer look

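Values of 34 genes were compared within normal lung and within tumors on the log2(value + 1) scale, 68 groups in all, and in 5 a single sample stood apart from the rest past the 95% critical value of Dixon's test. About 1 in 20 groups, 3.4 here, would do so by chance. Among the Hedgehog genes this was the case for Smo in normal lung 4, at 9.44 against 9.52 in the next sample, a small gap in a tight group. Boc in tumor 1 was at 5.24, with the next tumor at 8.11. Mycn in tumor 2 was at 12.82, with the next tumor at 9.45. Normal lung 4 was highest for Bmp4 (11.53, next 11.17) and lowest for Tmem67 (4.47, next 5.81). Tumor 1 in Gli3 did not pass this limit on the log2 scale.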

How the results depend on the processing

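Over the 34 named genes and 23 alternatives, 780 fold changes were computed, of which 715 kept both direction and side of the threshold, 44 lost the call, 12 gained it and 9 changed sign. Shh, Ptch1, Smo, Gli1 and Hhip were called lower in all of them, with ranges of -7.09 to -5.13, -0.77 to -0.45, -4.24 to -3.13, -3.92 to -1.89 and -6.33 to -4.05. The sign of Gli2 turned in edgeR (0.15), DESeq2 (0.091) and without tumor 1, with -0.61 to 0.035 when single samples were left out. That of Gli3 turned in edgeR (0.41), DESeq2 (0.33) and with the Y-linked covariate (0.54). That of Kif7 turned with the Y-linked covariate (-0.71), without tumor 2 (-0.17) and without tumor 4 (-0.0053), with -0.17 to 0.60 when single samples were left out. None of these values passed the test, and the cause was not tested. Called genes numbered 1 of the 9 Hedgehog genes higher with equal totals. With the Y-linked covariate 4 other pathway genes and 0 target genes were higher and 1 cilium gene was lower. DESeq2 left 1 target gene higher, where Mycn and Gas1 had no adjusted p. Cilium genes called lower numbered 2 with equal totals, without the trachea-titled tumors, in edgeR and in DESeq2, and 2 to 5 when single samples were left out. Exact permutation p-values of the 9 genes, 0.00126 at the smallest the splits allow, fell on the same side of 0.05 as the limma tests. No paired analysis was possible because the labels give no number shared by a normal lung and a tumor. Depth limits Shh in tumor 1 and Hhip in tumor 2, with 0 reads each, and Gli1 in tumor 1, with 4.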

Other observations

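Tumors that share a title number did not always share Hedgehog levels. Tumors 3 and 4 (number 159) had 4.96 and 90.7 normalized counts of Gli1, 9.91 and 79.9 of Smo, 6.94 and 93.4 of Gas1, and 1325 and 880.1 of Ptch1. Tumor 4 also had more of the fibroblast markers Dcn (1263 against 34.7) and Lum (314 against 1.98). Pdgfra of the same list was instead higher in tumor 3, at 2949 against 1779 normalized counts in tumor 4. Tumors 5, 6 and 7 (number 201) were the 3 highest tumors in Gli2, at 235, 305.3 and 316, while Gli1 ran from 16.99 to 71.7 and Smo from 27.5 to 197 among them. These groupings were looked at after the values were seen and were not tested.

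The 2 tumors with the word for trachea in their titles lay at opposite ends of the tumors for Gli2, at 20.3 in tumor 1 and 316 in tumor 7. They were the 2 highest tumors in Gli3, at 796 and 192, and in Hhip, at 96.2 and 42.9. Tumor 1 had 0 and tumor 7 had 17.3 normalized counts of Shh. Tumor 1 was also lowest of the tumors in Kif7 (24.1), Boc (36.7) and Foxf2 (6.96).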
